A study of Mus musculus with 12 samples.

Results

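Of the 12 RNA-seq libraries made from stromal vascular cells of mouse fat, 8 held abundant transcripts of Crisp1 and 4 held almost none, and these 2 sets of libraries are compared here across all genes. A library was placed in the Crisp1-high set when Crisp1 exceeded 500 CPM (the gene's count divided by the library's total and multiplied by 1e+06) and in the Crisp1-low set when it was under 1 CPM. Every library met 1 of the 2 criteria, and each of the 4 label groups held 2 high libraries and 1 low library. The sets were chosen by the measured Crisp1 count, with no use of the labels, and are not groups of the study.

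The label groups, each of 3 libraries, were p21+/mcherry fed a standard diet (abbreviated SD mCherry, replicates 1, 2 and 3), p21+/mcherry fed a high-fat diet (abbreviated HFD mCherry, replicates 15, 17 and 20), p21+/mcherry-Tert on a high-fat diet (HFD Tert, replicates 25, 26 and 27) and p21+/mcherry-TertCi on a high-fat diet (HFD TertCi, replicates 30, 31 and 33). In each of them 1 p21 (Cdkn1a) allele carries the mCherry cassette, so the heterozygous p21 allele is shared by every library. Only in the Tert and TertCi groups does the p21 promoter also drive Tert, or a catalytically inactive Tert (TertCi), in whichever cells use it. The labels describe primary stromal cells of adipose tissue. Fat depot, sex, age and whether each library is a separate animal are not given in the labels, so p-values measure only the spread between these libraries.

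Crisp1 encodes a cysteine-rich secretory protein that coats maturing sperm in the epididymis, and Akr1b7 encodes an aldo-keto reductase first known as the mouse vas deferens protein. Both are androgen-regulated. The epididymis is a long coiled tube whose proximal part (caput), middle and distal part (cauda) secrete different sets of proteins, and it continues into the vas deferens, an epithelial duct inside a thick coat of smooth muscle. In the male mouse the gonadal fat pad is attached to the epididymis. The stromal vascular fraction is what remains of fat tissue once mature adipocytes are removed: adipose progenitors, endothelial cells, pericytes and immune cells.

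Crisp1 lies at chr17:40293758-40319207 and Akr1b7 at chr6:34412362-34423137 (RefSeq, GRCm38.p6), so the pair that marks the split sits on different chromosomes. Their promoters, the 250 bases before each start site from RefSeq (GRCm38.p6), are shown because these are the transcripts that separate the libraries. Capitals mark TATAAA in the first and TGTTCT, the core hexamer of androgen response elements, in the second. The first is on the minus strand at chr17:40319208-40319457 and the second on the plus strand at chr6:34412112-34412361.
Crisp1: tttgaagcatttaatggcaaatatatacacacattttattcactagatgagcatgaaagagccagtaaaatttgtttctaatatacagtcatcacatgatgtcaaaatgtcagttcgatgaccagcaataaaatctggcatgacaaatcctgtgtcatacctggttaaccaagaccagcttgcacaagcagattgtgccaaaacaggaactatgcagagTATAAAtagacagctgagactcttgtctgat
Akr1b7: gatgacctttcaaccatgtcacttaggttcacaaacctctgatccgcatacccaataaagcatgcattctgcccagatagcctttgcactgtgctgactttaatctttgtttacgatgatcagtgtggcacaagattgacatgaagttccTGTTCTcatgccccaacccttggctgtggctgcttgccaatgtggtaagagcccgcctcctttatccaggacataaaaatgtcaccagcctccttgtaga
The Crisp1 window held 1 TATAAA, starting 31 bases before the start site, and no TGTTCT on either strand. The Akr1b7 window held 1 TGTTCT, starting 100 bases before the start site, and no TATAAA on either strand. Of 32851 RefSeq promoters of this length, 16.1% held TGTTCT and 12.4% held TATAAA on either strand, and neither motif overlaps the other. A match of letters is a description of the window and not a binding site.

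Crisp1 was at 10169 and 14862 CPM in SD mCherry replicates 1 and 3, at 2526 and 547 CPM in HFD mCherry replicates 15 and 17, at 8316 and 3033 CPM in HFD Tert replicates 25 and 26, and at 10089 and 8090 CPM in HFD TertCi replicates 30 and 33. In the low libraries it had 5 counts (0.261 CPM, SD mCherry replicate 2), 4 counts (0.212 CPM, HFD mCherry replicate 20), 9 counts (0.501 CPM, HFD Tert replicate 27) and 0 counts (HFD TertCi replicate 31, which allows up to 0.179 CPM). The library nearest the upper limit from above was HFD mCherry replicate 17, and the one nearest the lower limit from below was HFD Tert replicate 27, so no library lay between them. These values chose the libraries and are given without a test.

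Akr1b7 divided the libraries in the same way although it was not part of the rule. It was at 8983, 38223, 1023, 1150, 12997, 6984, 23898 and 19814 CPM in the high libraries, in the order given for Crisp1. In the low libraries it had 7, 0, 0 and 4 counts in SD mCherry replicate 2, HFD mCherry replicate 20, HFD Tert replicate 27 and HFD TertCi replicate 31, and a count of 0 allows up to 0.167 CPM. It was the most abundant transcript of SD mCherry replicate 3, HFD Tert replicate 25 and HFD TertCi replicates 30 and 33, and Crisp1 held that rank in SD mCherry replicate 1. Together they took 5.31% of all counts in SD mCherry replicate 3 and 0.170% in HFD mCherry replicate 17. The ratio of Akr1b7 to Crisp1 counts was 1.56 to 2.57 in 6 high libraries, but 0.883 in SD mCherry replicate 1 and 0.405 in HFD mCherry replicate 15. In bulk RNA, fewer cells of a type and less RNA per cell cannot be told apart, for these and all genes below.

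**Figure D1:**
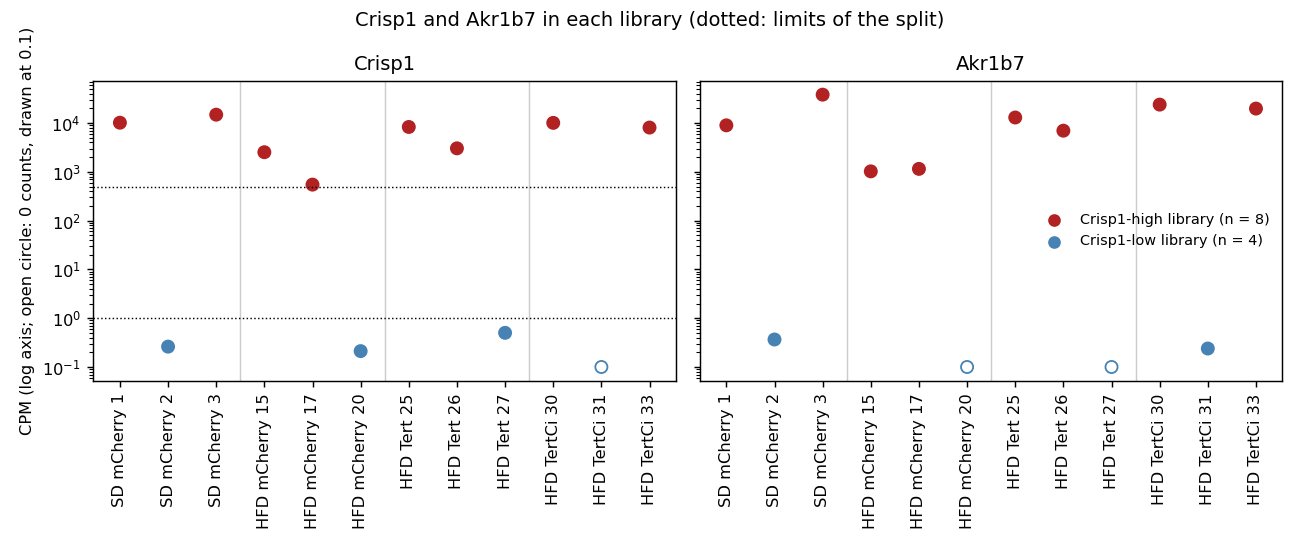
Crisp1 (left) and Akr1b7 (right) in CPM on a log axis in each of the 12 libraries, ordered by label group, with high libraries in red and low libraries in blue and counts of 0 drawn as open circles at 0.1. The lowest high library, HFD mCherry replicate 17, stands at 547 CPM of Crisp1 and the highest low library, HFD Tert replicate 27, at 0.501 CPM.

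Libraries held 16430330 to 19486965 counts. Totals of high and low libraries differed by less than the spread between libraries, with a mean within-group difference of -151433 counts (high minus low, 2-sided exact permutation p = 0.864 over 81 arrangements). High libraries had 18194 ± 606 genes with a count (SD, n = 8) and low libraries 17180 ± 1053 (SD, n = 4), a mean within-group difference of 1014 genes (2-sided exact permutation p = 0.0741, Benjamini-Hochberg 0.222 over 3 measures, smallest possible p 0.0123). As a check of the labels, the added feature mCherry_Tert was at 0 in the 6 mCherry libraries and at 1.96 to 5.14 CPM in the knock-in libraries, high and low alike.

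In the comparison blocked by label group, edgeR called 261 of 16713 genes tested (1.56%) at an adjusted p under 0.05. Of these, 254 (1.52%) were higher and 7 (0.0419%) lower in the Crisp1-high libraries, while 4908 (29.4%) stood under 0.05 before adjustment. For 1940 genes (11.6%) both high libraries lay above the low one in all 4 label groups, and for 792 (4.74%) both lay below it. Of the 254 genes called higher, 249 had that order in all 4 groups, as did all 7 genes called lower. The 254 include Crisp1 and Akr1b7, for which the call says nothing, and other genes of their tissue can follow the split in the same way. The calls therefore describe which genes go with Crisp1 and are not independent evidence for the split. The number called moved with single libraries: leaving out HFD mCherry replicate 17, the high library with the least Crisp1, raised it to 1714 higher and 1556 lower, and leaving out HFD TertCi replicate 31 reduced it to 44 higher and 0 lower in edgeR (815 lower at an unadjusted p under 0.05).

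Protease inhibitors and defensins, which are secreted proteins, were among the genes furthest above the low libraries. Serpina1f, a serine protease inhibitor of the alpha-1-antitrypsin family, ranged from 82.0 through a median of 1070 to 1870 CPM in the 8 high libraries and had 0 counts in all 4 low ones, at least 6051-fold higher on average (limit of 3 counts in each low library; edgeR adjusted p = 0.00419). Spink8, a Kazal-type serine protease inhibitor, ranged from 67.7 through a median of 957 to 2263 CPM in high libraries and had 0, 0, 0 and 13 counts in the low ones, the 13 in HFD TertCi replicate 31 (log2 fold change 12.71 ± 1.34, SE, adjusted p by edgeR = 0.00419). The groups did not overlap for either gene, and HFD mCherry replicate 17 had the least of both among the high libraries. Defb43 and Defb2, beta-defensins, which are small cationic antimicrobial peptides, were at 0 in every low library and ranged from 5.64 through a median of 87.1 to 162 CPM and from 0.924 through a median of 9.60 to 28.5 CPM in high libraries. Defb30, of the same family, ranged from 1.90 through a median of 52.8 to 639.8 CPM against at most 0.239 CPM in low libraries. Its gene overlaps Defb42 in the GENCODE annotation, but not by RefSeq positions (chr14:63034087-63037846 and chr14:63046991-63048606). The annotation behind the counts is not given, so whether reads of the pair were divided between them is not known.

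Genes that are not secretory inhibitors or defensins were among the same set. Crygc, a gamma-crystallin, ranged from 12.4 through a median of 141 to 639 CPM, Gm5087, a gene model, from 5.39 through a median of 80.0 to 154 CPM, and Adgrg7, an adhesion G-protein-coupled receptor, from 1.64 through a median of 12.5 to 24.1 CPM, and each had 0 counts in all 4 low libraries. With Serpina1f, Defb43 and Hoxd13, they made up the 6 genes that had 0 counts in every low library and at least 1 CPM in every high one. Ces1e, a carboxylesterase, was at least 71.3-fold and Wee2, a Wee1-family kinase, at least 60.7-fold higher by the limit of 3 counts. Glb1l3, a beta-galactosidase-like gene, reached 162 CPM in SD mCherry replicate 1, the highest of the 12, and had 1 count over the 4 low libraries. Sost, which encodes the secreted Wnt antagonist sclerostin, ranged from 6.46 through a median of 135 to 332 CPM in high libraries and was at 0.261, 0, 0.501 and 0 CPM in low ones (log2 fold change 9.54 ± 0.86, SE, adjusted p by edgeR = 0.00137).

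Genes known from the caput separated the high libraries from one another, though not all in the same way. Of 16 caput secretory genes listed, 16 reached 10 CPM in HFD mCherry replicate 15 and 14 in SD mCherry replicate 3. In SD mCherry replicate 1 and HFD TertCi replicate 30 there were 3 (Adam7, Defb42 and Rnase9), and in the other 4 high libraries 1 (Defb42). The low libraries had 0, 0, 0 and 3, the 3 in HFD TertCi replicate 31. Gpx5, the secreted glutathione peroxidase of the caput, was at 16961 CPM in HFD mCherry replicate 15 and 2785 CPM in SD mCherry replicate 3. It was at 0.351, 0.0513, 1.34, 3.91, 0.375 and 0.779 CPM in the other high libraries (SD mCherry replicate 1, HFD mCherry replicate 17, HFD Tert replicates 25 and 26, HFD TertCi replicates 30 and 33) and had 0 counts in the low ones. The lipocalins Lcn8 and Lcn9, carriers of small lipophilic molecules, had the same pair of libraries, at 2919 and 1736 CPM and at 1686 and 551 CPM, with at most 0.476 CPM of Lcn8 and no count of Lcn9 elsewhere. Cst8 and Cst11, cystatins (inhibitors of cysteine proteases), were at 849 and 307 CPM and at 739 and 139 CPM in that pair. Lcn5, an epididymal retinoic acid carrier, was at 3836 CPM in HFD mCherry replicate 15 but 7.40 CPM in SD mCherry replicate 3, so the pair was not alike throughout. Both belong to mCherry groups, 1 on each diet.

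None of the 10 caput genes that could be tested was called (all tested genes: 1.56%), although all 10 had a positive log2 fold change. The 6 that did not pass the filter on low counts were Lcn8, Lcn9, Lcn10, Cst8, Cst11 and Defb41, so the 10 do not stand for the list. Among the 10, Gpx5 and Lcn5 had 0 counts in all low libraries and passed that filter through high libraries alone. Their positive sign was thus fixed in advance, and the signs of the 10 are no support for the split. The summed level of the list was 34.3 CPM in the lowest high library, 887 CPM at the median and 42570 CPM in the highest, against 0.947 to 219 CPM in low libraries. The low library at 219 CPM was HFD TertCi replicate 31.

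Another set of genes, not all of them secretory, was shared by SD mCherry replicate 1, HFD mCherry replicate 15 and HFD TertCi replicate 30. Rnase9, a ribonuclease-family secretory protein on the caput list, was at 190.2, 1862 and 50.01 CPM in these 3 libraries and at most 0.159 CPM in the other 9. Bsph2, a binder-of-sperm protein, was at 89.9, 26.1 and 51.3 CPM and had 0 counts in the other 9. Defb22, a beta-defensin, was at 957, 307 and 232 CPM and also had 0 counts in the other 9. Pate2 was at 139.6, 57.4 and 48.7 CPM, and Wfdc16, a WAP-domain protease inhibitor, at 265, 91.8 and 195 CPM. Cyp17a1, a steroid-synthesis enzyme of the Leydig cell list, was at 50.4, 12.9 and 15.8 CPM. Defb22 and Cyp17a1 were picked for this pattern after their values were seen, and none of these genes was called. SD mCherry replicate 3, with the most Crisp1 of all, had 0 counts of Bsph2 and Defb22 and 0.116 CPM of Rnase9. HFD mCherry replicate 15 is the only library in both this set and the caput pair.

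Adam7, of the caput list, was at 718, 730, 4652 and 341 CPM in SD mCherry replicates 1 and 3, HFD mCherry replicate 15 and HFD TertCi replicate 30. It was at 138 CPM in HFD TertCi replicate 31, a low library, and at most 7.25 CPM in the others. Defb42, a beta-defensin also on the caput list, was present in all 8 high libraries. It ranged from 33.6 through a median of 548 to 1333 CPM in high libraries and was at 0.994, 0.159, 0 and 18.5 CPM in the low ones, with adjusted p = 0.0517 by edgeR. Of the 20 genes listed for the epididymis without regard to segment, 19 were in the files, 18 could be tested and 1, Spink8, was called (all tested genes: 1.56%). At least 10 CPM was reached by 19 of them in HFD mCherry replicate 15, by 12 in SD mCherry replicate 1 and by 11 in each of SD mCherry replicate 3 and HFD TertCi replicate 30. The number was 6 in HFD TertCi replicate 33, 5 in HFD Tert replicate 25, 2 in HFD Tert replicate 26 and 1 in HFD mCherry replicate 17, against 2, 1, 0 and 2 in the low libraries. Of the 43 beta-defensin genes in the files, 27 were tested and 3 (Defb2, Defb30 and Defb43) were called (all tested genes: 1.56%). The Defb2 and Defb30 calls were lost in 14 and 13 of 22 alternatives. The family is large and its members are alike, so reads could be shared among them. Sperm and germ cell transcripts were scarce. Prm2, a sperm protamine, peaked at 20.1 CPM in HFD mCherry replicate 15, followed by 7.25 CPM in SD mCherry replicate 1. It was under 3 CPM in 9 of the 12 libraries. Of 10 germ cell genes tested, 9 had a positive log2 fold change (median 3.70) and none was called (all tested genes: 1.56%). Their list summed to 2.31 through a median of 22.4 to 104 CPM in high libraries and 2.54 to 8.21 CPM in low ones. Pgk2, Odf1 and Smcp were at most at 0, 0.366 and 0.418 CPM in low libraries and passed the filter through high ones. That left little room for a negative sign, so the signs of the germ cell genes are no support for the split.

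**Figure D2:**
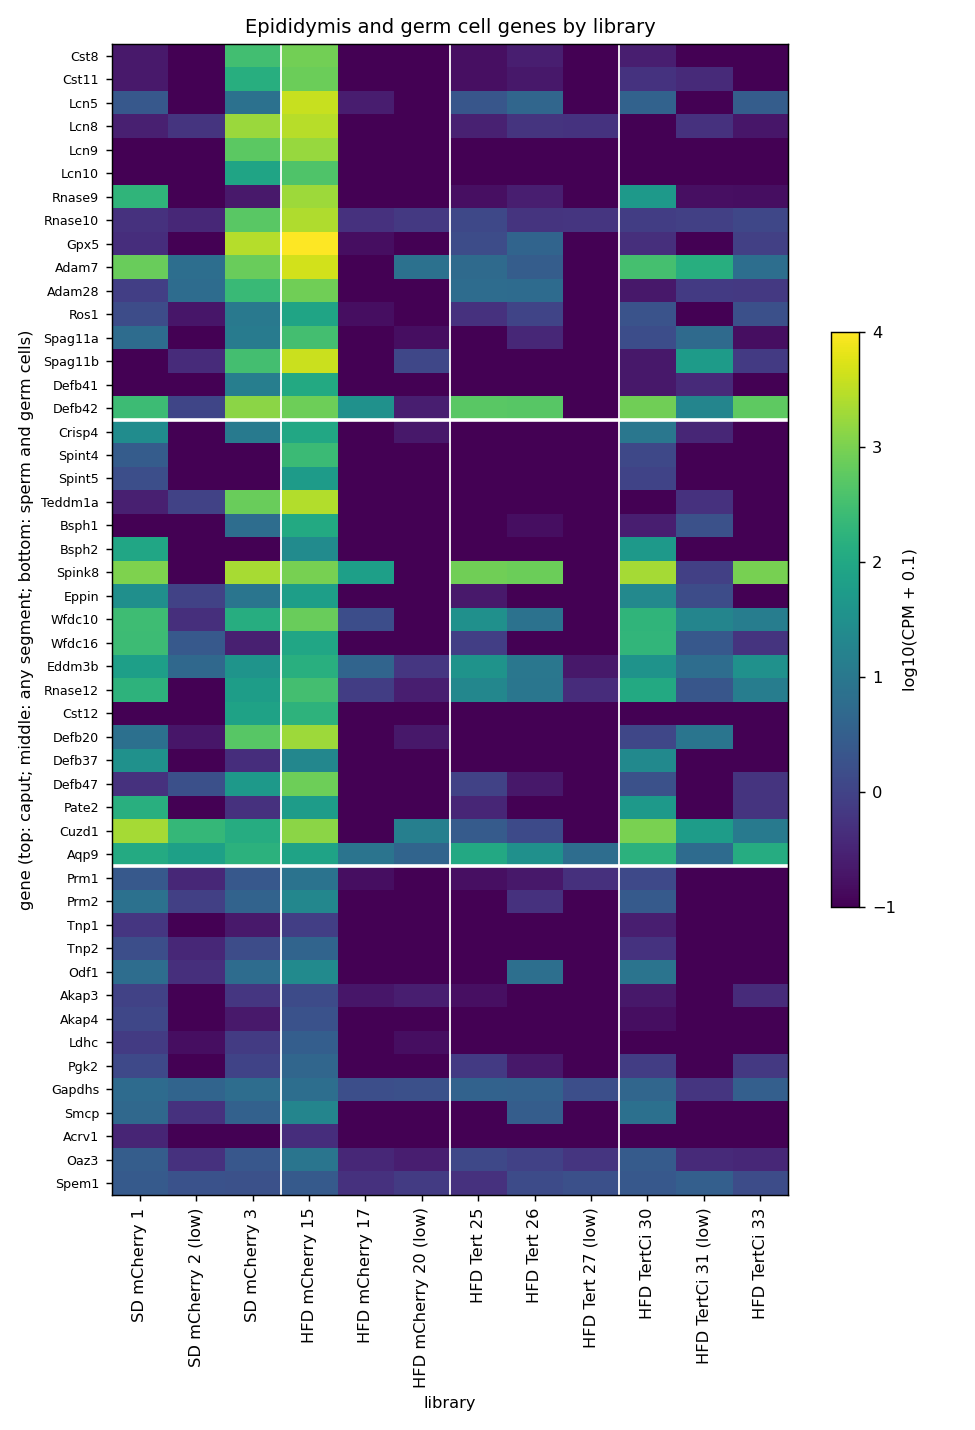
Log10(CPM + 0.1) of caput genes (top), epididymis genes of any segment (middle) and germ cell genes (bottom) in the 12 libraries, with low libraries named as such. Caput genes are bright in SD mCherry replicate 3 and HFD mCherry replicate 15 (Gpx5 at 2785 and 16961 CPM), and a different set in SD mCherry replicate 1, HFD mCherry replicate 15 and HFD TertCi replicate 30.

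Of 12 smooth muscle genes, 7 were called higher in the Crisp1-high libraries and none was called lower. All 12 were tested (all tested genes: 1.52% higher), and the median log2 fold change was 2.45, against 0.03 over all genes. Actg2, the gamma actin of visceral smooth muscle, was at 559 and 1825 CPM against 95.8 CPM in SD mCherry, 477 and 134 against 13.0 CPM in HFD mCherry, 1535 and 2287 against 54.3 CPM in HFD Tert, and 1405 and 1304 against 109 CPM in HFD TertCi (a log2 difference of 4.10 ± 0.51, SE, adjusted p by edgeR = 0.00644). Every high library exceeded every low one, though HFD mCherry replicate 17 was close to HFD TertCi replicate 31. Cnn1 (calponin, an actin-binding regulator of contraction) ranged from 326 through a median of 2639 to 5577 CPM against 277, 30.1, 103 and 222 CPM in low libraries, and Mylk (myosin light chain kinase) from 417 through a median of 2403 to 4874 CPM against 453, 116, 164 and 209 CPM. Both were called, with log2 fold changes of 3.85 and 3.04. Myh11 (smooth muscle myosin heavy chain), Des (desmin), Lmod1 (leiomodin) and Acta2 (smooth muscle alpha actin) were called higher by 2.89, 2.73, 2.18 and 1.74 on the log2 scale. The 5 not called were Tagln, Smtn, Synpo2, Myocd and Pcp4, with log2 fold changes of 1.33, 0.93, 1.88, 2.05 and 7.82. The low libraries were far from empty of Acta2, at 621, 149.5, 501 and 792 CPM.

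The muscle signal did not keep a fixed ratio to Crisp1. HFD Tert replicate 26 had the most Actg2 of all libraries but only 3033 CPM of Crisp1, a ratio of 0.754, whereas SD mCherry replicate 1 had a ratio of 0.0550. Mybpc1, a myosin-binding protein, was also called and ranged from 8.44 through a median of 95.1 to 139.9 CPM against at most 0.265 CPM in low libraries. Of 12 skeletal muscle genes listed 10 were tested, and Acta1 (skeletal alpha actin) and Ckm (muscle creatine kinase) were called (all tested genes: 1.56%). They ranged from 43.3 through a median of 392 to 600.5 CPM and from 8.15 through a median of 107 to 199 CPM in high libraries, and were at 16.5, 1.27, 0 and 0.657 CPM and 8.16, 0.0529, 0 and 0.119 CPM in low ones, so that for Ckm HFD mCherry replicate 15 and SD mCherry replicate 2 met. The calls were lost in 12 of 22 alternatives for Acta1 and 14 for Ckm. The other 10 genes of the list were low in all libraries: Myh4 had 0 counts in all 12, and the highest values of the rest were 6.03 CPM of Actn3, 4.82 CPM of Mb, 4.12 CPM of Tnni2, 4.02 CPM of Tnnt3, 2.10 CPM of Atp2a1, 1.64 CPM of Myh1, 1.504 CPM of Myh2, 1.22 CPM of Mylpf and 0.349 CPM of Pvalb. Slc2a4, the insulin-responsive glucose transporter of muscle and fat, was the 1 called member of 16 adipocyte genes (all tested genes: 1.56%). It ranged from 9.65 through a median of 36.9 to 73.0 CPM in high libraries, against 14.2, 5.45, 8.86 and 7.83 CPM in low ones. Adipoq (adiponectin) stayed between 0.582 and 7.77 CPM in all libraries.

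Some Hox genes from the posterior end of the clusters, which pattern the reproductive ducts and the hindmost body, were called higher in the high libraries. Hoxa10, on the list of Wolffian duct factors, ranged from 5.08 through a median of 31.8 to 90.9 CPM in high libraries and was at 4.76, 0.476, 1.00 and 2.63 CPM in low ones (log2 fold change 3.94 ± 0.49, SE, adjusted p by edgeR = 0.00644). Hoxa11 was at 4.24, 0.212, 0.390 and 0.836 CPM in the low libraries and ranged from 3.84 through a median of 32.1 to 86.2 CPM in the high ones. Hoxd13, the last gene of its cluster, had 0 counts in all low libraries and ranged from 2.45 through a median of 12.6 to 37.7 CPM, at least 86.3-fold higher. All Hox genes were then counted, a set chosen after these values were seen: of 39 in the files 35 were tested and 5 were called higher, namely Hoxa10, Hoxa11, Hoxd11, Hoxd12 and Hoxd13, and none lower (all tested genes: 1.56%). Of the 35, 23 had a positive and 12 a negative log2 fold change. Hoxd10, next to Hoxd11 in its cluster, was not called (log2 fold change 0.98, adjusted p = 0.236 by edgeR), and its high libraries, which ranged from 3.67 through a median of 15.4 to 32.7 CPM, overlapped the low ones at 2.14, 3.07, 10.9 and 12.5 CPM. Hoxa5, an anterior member, was not called, at 34.4 and 11.2 against 40.0 CPM in SD mCherry, 33.6 and 32.2 against 29.9 CPM in HFD mCherry, 21.2 and 36.5 against 43.2 CPM in HFD Tert and 26.4 and 30.2 against 43.2 CPM in HFD TertCi.

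**Figure D3:**
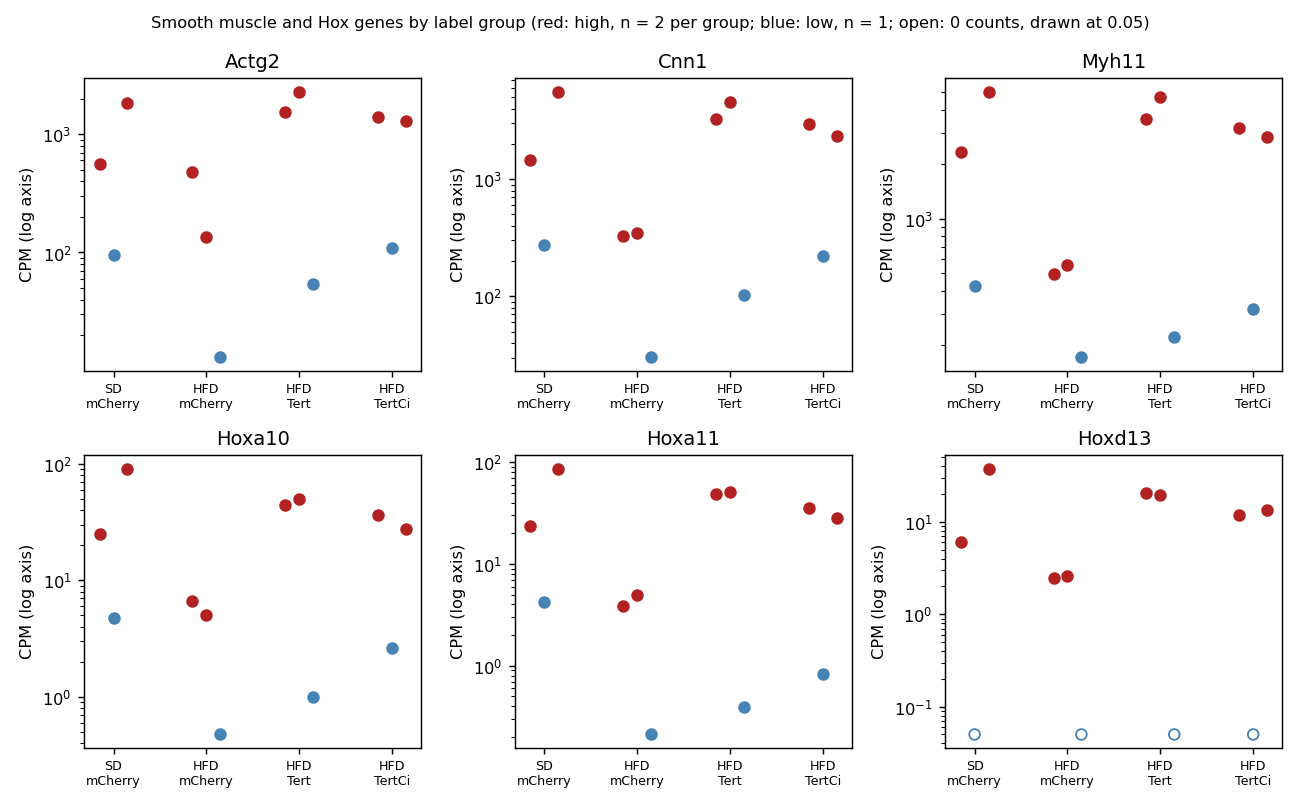
Actg2, Cnn1, Myh11, Hoxa10, Hoxa11 and Hoxd13 in CPM on log axes, by label group, with the 2 high libraries of each group in red and the low library in blue (open circles: 0 counts, drawn at 0.05). The low library is the lowest of its group in all 6 genes, as for Actg2 at 13.0 CPM in HFD mCherry replicate 20.

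The low libraries were not free of epithelium. The 22 general epithelial genes summed to 8113 CPM in SD mCherry replicate 2, a low library and the highest of all 12, against 217 to 5705 CPM in the high libraries. Epcam, an epithelial adhesion molecule, was at 586 CPM there and at 395 and 333 CPM in the high libraries of that group, and Krt8, a keratin of simple epithelia, at 1960, 1250 and 461 CPM. In the other low libraries Epcam was at 32.6, 3.06 and 19.4 CPM. HFD mCherry replicate 17, a high library, had 9.49 CPM of Epcam and the smallest epithelial sum (217 CPM), below every low library. None of the 22 genes was called (all tested genes: 1.56%), although 21 had a positive log2 fold change (median 2.17). Pax8 and Pax2, duct transcription factors, were at 58.5 and 10.6 CPM in SD mCherry replicate 2 and ranged from 4.16 through a median of 84.1 to 100.2 CPM and from 1.39 through a median of 30.6 to 51.5 CPM in the high libraries.

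Urothelial genes, which encode the plaque proteins of the bladder and urinary tract lining, were concentrated in 3 libraries across both sets. Upk1a was at 273 CPM in SD mCherry replicate 2 (low) and at 193 and 164 CPM in HFD Tert replicates 25 and 26 (high), and at most 16.7 CPM in the other 9. Upk3a was at 152, 114 and 121 CPM in the same 3 and at most 4.68 CPM elsewhere. Psca, a surface antigen of urothelium and prostate, was at 288, 275 and 222 CPM and at most 8.24 CPM elsewhere. The list summed to 1377, 1098 and 1007 CPM in these libraries, and none of its 9 genes was called (all tested genes: 1.56%).

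**Figure D4:**
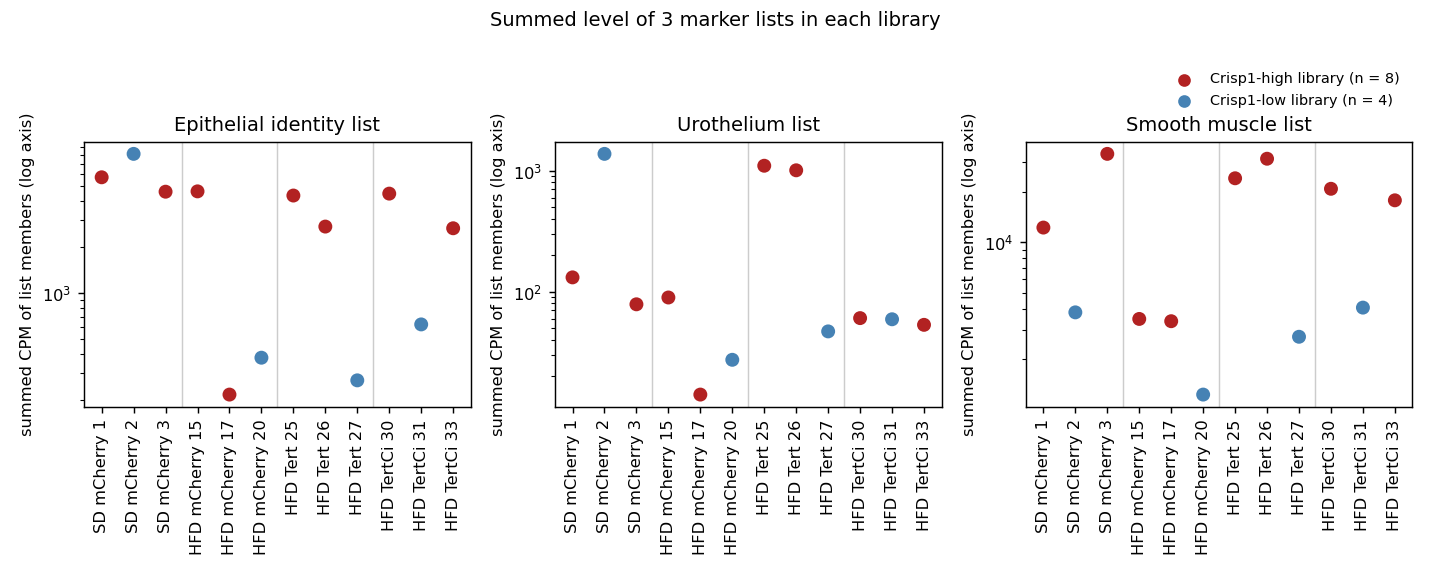
Summed CPM (log axes) of the epithelial identity, urothelium and smooth muscle lists in each library, with high libraries in red and low ones in blue. SD mCherry replicate 2, a low library, has the highest epithelial (8113 CPM) and urothelial (1377 CPM) sums, while its smooth muscle sum is below those of both high libraries of its group.

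Genes of the epididymal lists were also present in low libraries. The genes listed for any segment summed to 298 CPM in SD mCherry replicate 2 and to 107 CPM in HFD TertCi replicate 31. The high libraries held 82.0 to 9796 CPM. In SD mCherry replicate 2, Cuzd1 made up 217 CPM and Aqp9 70.3 CPM of that sum. The next highest member there, Eddm3b, was at 4.71 CPM, and Spink8 and Bsph2 had 0 counts. The sum of that library thus rested on Cuzd1 and Aqp9, and whether these came from epididymal cells was not tested. HFD TertCi replicate 31 held 138 CPM of Adam7, a sperm-surface metalloprotease-like protein of the epididymis, 58.6 CPM of Cuzd1, 54.5 CPM of the defensin-like Spag11b and 18.5 CPM of Defb42, with 0 counts of Crisp1. Spag11b was at 3969 CPM in HFD mCherry replicate 15 and 325 CPM in SD mCherry replicate 3, and at most 1.06 CPM in the remaining libraries. HFD TertCi replicate 31, a library without Crisp1, was therefore not one without transcripts of the epididymal lists. HFD Tert replicate 27 had the smallest sum of both epididymal lists among the low libraries, with none of the 16 caput genes or the 19 other epididymal genes at 10 CPM.

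Genes of the seminal vesicle, prostate and Leydig cells ranged from absent to moderate, and none was called (all tested genes: 1.56%). Before adjustment, edgeR p was under 0.05 for 2 of 3 tested seminal vesicle and prostate genes and 2 of 5 Leydig cell genes. Svs3a, Svs3b, Svs4 (seminal vesicle secretions), Pbsn (probasin) and Sbp had 0 counts in all 12 libraries, and Svs2, Svs5 and Svs6 stayed under 1 CPM. The steroid-synthesis enzymes Cyp11a1 and Hsd3b1 were at 18.8 and 22.8 CPM in HFD Tert replicate 26 and at most 1.44 and 0.161 CPM elsewhere. Cyp17a1 was at 50.4, 12.9 and 15.8 CPM in SD mCherry replicate 1, HFD mCherry replicate 15 and HFD TertCi replicate 30, and at most 0.408 CPM elsewhere. Star, which moves cholesterol into mitochondria, was at 75.0 CPM in HFD mCherry replicate 17 (high) and 64.7 CPM in HFD mCherry replicate 20 (low), and between 6.52 and 39.8 CPM elsewhere. Insl3, a Leydig cell hormone, was between 3.26 and 21.9 CPM and Tgm4, a prostate transglutaminase, between 8.04 and 15.2 CPM across the 12 libraries. In the GENCODE annotation Insl3 overlaps Jak3 and Tgm4 overlaps Zdhhc3, so reads of these pairs could be divided in either way. The paralogs of the marker pair were low by comparison: Crisp3 and Crisp4 reached 15.8 and 97.8 CPM, and Akr1b3, Akr1b8 and Akr1b10 74.3, 67.3 and 69.8 CPM.

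Most genes of macrophages, endothelium, matrix and adipose progenitors had negative log2 fold changes, but none of them was called (all tested genes: 0.0419% lower). Before adjustment, edgeR p was under 0.05 for 10 of 15 macrophage genes, 8 of 12 of lipid-associated macrophages and 12 of 15 endothelial genes. For matrix and progenitor genes it was 7 of 12 and 7 of 16 (all tested genes: 29.4%, either direction). Of 15 macrophage genes 13 had a negative log2 fold change (median -0.77), of 12 genes of lipid-associated macrophages 12 (median -1.06), of 15 endothelial genes 15 (median -0.61), of 12 collagen and matrix genes 12 (median -0.71) and of 16 adipose progenitor genes 14 (median -0.45). Pericyte genes had 5 of 7 negative (median -0.56). Lymphoid and granulocyte lists did not lean that way, with 4 of 8 negative for B cells (median -0.02), 5 of 9 for T cells (-0.08), 4 of 7 for mast cells (-0.08) and 0 of 4 tested for neutrophils (0.64). Over all genes tested, 8035 of 16713 were negative, with a median of 0.03. Pecam1, an endothelial adhesion molecule, was at 242 and 177 against 293 CPM in SD mCherry, 317 and 487 against 497 CPM in HFD mCherry, 532 and 613 against 939 CPM in HFD Tert and 435 and 685 against 1052 CPM in HFD TertCi. Both high libraries were below the low one in each group, with almost no gap in HFD mCherry (log2 fold change -0.69 ± 0.21, SE, adjusted p by edgeR = 0.0865). Mmp12, a macrophage elastase, was at 5.05 and 2.59 against 169 CPM in HFD Tert and 12.6 and 18.9 against 105 CPM in HFD TertCi, but at 130.3 and 670.0 against 635 CPM in HFD mCherry and 6.84 and 42.6 against 12.9 CPM in SD mCherry. Pdgfra, the receptor that marks adipose progenitors, was between 52.6 and 209 CPM in every library. Smooth muscle and duct transcripts took a larger share of the high libraries, and the part of that share in these lower values was not tested.

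**Figure D5:**
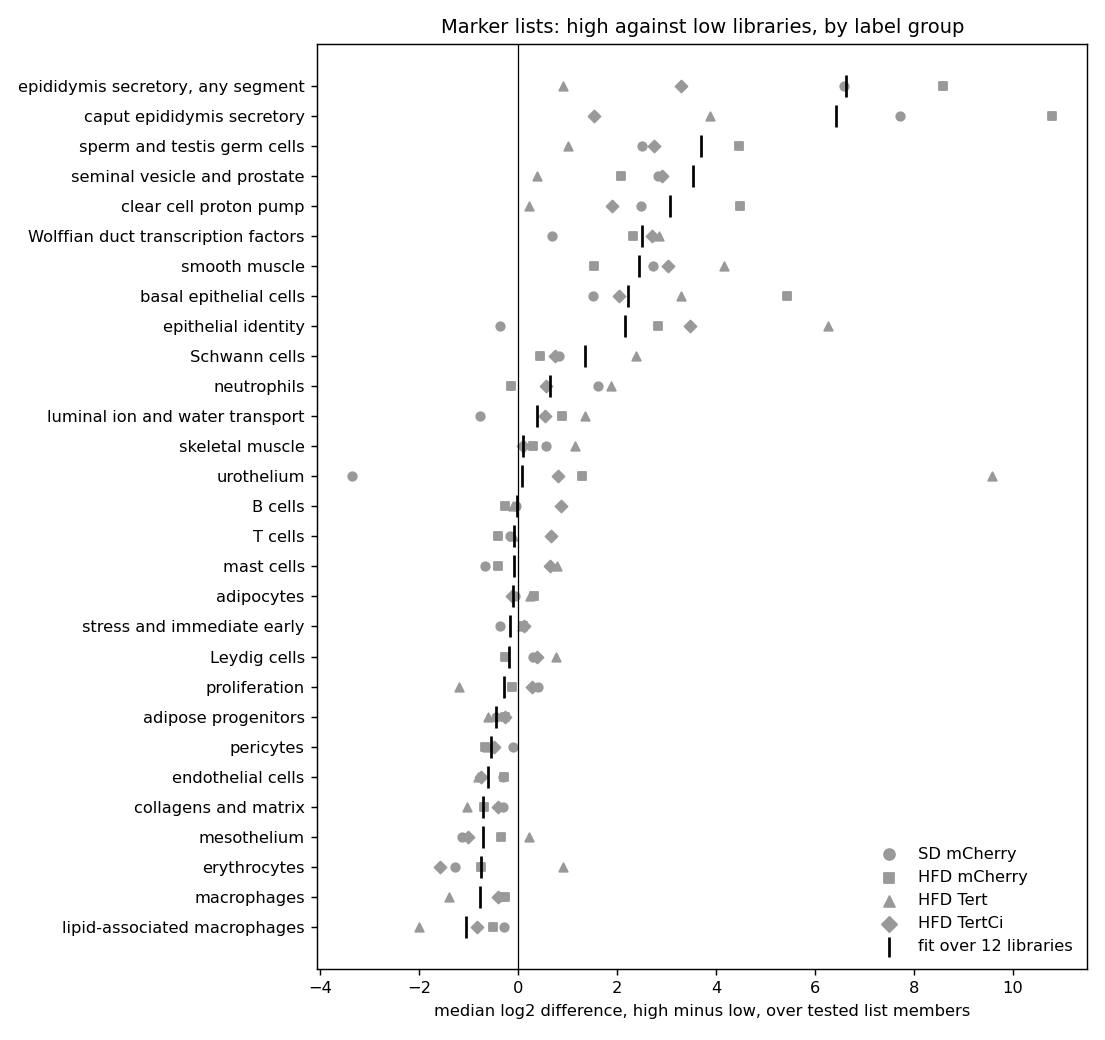
Median log2 difference between high and low libraries over the tested members of each marker list, fitted over the 12 libraries (black bars) and within each label group (grey symbols; log2 of CPM + 0.1, mean of 2 high libraries minus the low one). Smooth muscle (2.45) is positive and lipid-associated macrophages (-1.06) negative in all 4 groups, whereas urothelium and epithelial identity change sign between groups.

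The 7 genes called lower in the high libraries changed less. Pdgfb, the platelet-derived growth factor B chain made by endothelium, was at 166 and 96.2 against 338 CPM in SD mCherry, 143 and 153 against 197 CPM in HFD mCherry, 97.9 and 102 against 269 CPM in HFD Tert and 176 and 184 against 389.8 CPM in HFD TertCi (a log2 difference of -1.19 ± 0.18, SE, adjusted p by edgeR = 0.0167). The others were Arhgap26 (-0.97), Sema3f (-0.95), a secreted semaphorin, Nuak2 (-0.94), an AMPK-related kinase, Rhbdf2 (-0.87), an inactive rhomboid protein, Slc12a2 (-0.80), a sodium-potassium-chloride cotransporter, and Ikbkb (-0.64), a kinase of NF-kappaB signalling, each as a log2 fold change. All 7 were lower in both high libraries of all 4 groups. Each of these calls was lost in some alternatives, and leaving out any of HFD Tert replicate 25 or 27 or HFD TertCi replicate 30, 31 or 33 left none of them.

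Adding the split to the model changed how label groups compared. An F test over the 4 label groups in edgeR called 280 genes (1.68%) when high or low status was in the model and 2 (0.012%) when it was not, and the 2 were among the 280. The biological coefficient of variation, the spread between libraries beyond counting error, was 0.449 with the split and 0.536 without it. Status was itself taken from counts of these same libraries. The smaller spread and the change in calls are therefore not independent evidence for the split. The 280 rested on single libraries: 0 were called by edgeR without HFD mCherry replicate 20 (3281 at an unadjusted p under 0.05) and 1733 without HFD mCherry replicate 15. Tert and Cdkn1a, the genes the study manipulates, were not called between high and low libraries (log2 fold change -0.40, adjusted p = 0.57, and -0.62, adjusted p = 0.0927, by edgeR).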

How the data were processed

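Poly-T selected RNA was reverse transcribed with random hexamers and sequenced, per the labels' protocols. For each library the authors deposited raw counts of reads over 24422 named features. Reads were processed with Subread, SAMtools and featureCounts 1.6.4 on mm10, per the submitters' processing notes. Neither the annotation nor the strand setting is given in the sources used here. The 0 table lines without a gene name needed no removal, and the counts were not altered.

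CPM was each count divided by its library's total. Libraries were split at 500 and 1 CPM of Crisp1. Genes passing filterByExpr with label group (16713) were tested with edgeR 4.0.16 in R 4.3.3 (TMM factors 0.855 to 1.15, robust quasi-likelihood fit with 7 residual degrees of freedom, label group plus high or low status, 2-sided, Benjamini-Hochberg over all genes, called under 0.05), and the code was tested on simulated data. Fold changes are high minus low on the log2 scale. Single values per library were compared by exact permutation of status within label groups. Alternatives used DESeq2 1.42.0 and limma 3.58.1. No batch is given in the labels.

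The libraries, lists and tests were chosen with earlier results of these data known. Named genes were Crisp1, Akr1b7, up to 14 called genes of largest and smallest log2 fold change averaging 1 CPM or more and with 1 order in all 4 label groups, up to 4 called members of a list (or 3 of highest mean where none was called), Tert and Cdkn1a. Members of the epididymal, male tract, epithelial, muscle and stromal lists outside this rule, and Defb22, Hoxa5, Hoxa11 and Hoxd10, were named after their values were seen. Gene positions and promoters are RefSeq's (GRCm38.p6, the mm10 assembly), and 23204 of the 24422 symbols matched. Overlaps between genes were taken from GENCODE. Limits of 3 counts cover counting error only. Each SE is the absolute log2 fold change divided by the square root of F from edgeR, and includes the spread between libraries.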

Additional observations from a re-analysis of the deposited data

Results flagged for a closer look

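For 5 marker lists and 2 gene families, both high libraries lay on one side of the low library in 1 label group and on the other side in another, and the difference between groups was not tested. The values are mean summed CPM of the 2 high libraries minus that of the low library, first for SD mCherry, then for the HFD groups mCherry, Tert and TertCi. The epithelial identity list gave -2964, 2039, 3258 and 2932 CPM, and the basal epithelial list -42.1, 145, 472 and 188 CPM. The urothelium list gave -1272, 24.5, 1006 and -2.32 CPM. SD mCherry replicate 2 had the most Krt8 (1960 CPM) and Upk1a (273 CPM) of the 4 low libraries. The adipocyte list gave -214, 311, -4289 and -1312 CPM. Fabp4, a fatty acid carrier also found in endothelium and macrophages, was at 5813 CPM in the low HFD Tert library. The T cell list gave -2.21, -2.79, -10.4 and 9.73 CPM. Of the gene families, the keratins gave -2672, 634, 1885 and 982 CPM and the cystatins 407, 759.6, -259.6 and -174 CPM.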

How the results depend on the processing

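The number of genes called depended on the tool and on single libraries. DESeq2 with its size factors called 2062 higher and 1203 lower (63.2% higher, against 254 of 261 in edgeR), limma-voom 64 and 2, the fit without the label group block 107 and 3, log2 Crisp1 CPM in place of high or low 1302 and 671 (66.0% higher), library-size scaling 304 and 11, and a test against a log2 fold change of 1 in edgeR 83 and 0 (32 lower at an unadjusted p under 0.05). Without 1 library the calls ran from 44 to 1714 higher and from 0 to 1556 lower. They were 1198 and 335 without SD mCherry replicate 1, 87 and 2 without SD mCherry replicate 3, 292 and 40 without HFD mCherry replicate 20, 69 and 0 without HFD Tert replicate 25, 90 and 2 without HFD Tert replicate 26, 60 and 0 without HFD Tert replicate 27, 64 and 0 without HFD TertCi replicate 30 and 69 and 0 without HFD TertCi replicate 33. Among alternatives added after seeing the data, leaving out SD mCherry replicate 3 with HFD mCherry replicate 15 gave 107 and 4, and leaving out SD mCherry replicate 2 with HFD mCherry replicate 17 gave 2476 and 1784. DESeq2 and the fit without HFD mCherry replicate 17 each included all 254 and all 7 of the edgeR calls. The cause of these shifts was not tested. No direction reversed among 35 genes named by the rule. These 35 were chosen because they were called in the same data, which left little room for a reversal. Of them, Serpina1f, Gm5087, Ces1e, Adgrg7 and Actg2 kept their call in all 22 alternatives. List medians kept their sign in all 21 alternatives that give one for smooth muscle, epithelial identity, caput, macrophages, endothelium, collagens and progenitors, but changed it in 6 for urothelium. The F test over label groups called 2 genes without high or low status and 3715 with a DESeq2 likelihood ratio test, and 0 to 1733 without 1 library. Without 1 high library, the difference in library total ran from -462933 to 160068 counts, turning positive without HFD mCherry replicate 15 (138106) or HFD Tert replicate 25 (160068). The difference in genes detected ran from 838 to 1189, and was 1189 and 1180 (exact permutation p = 0.0370 in each) without SD mCherry replicate 3 and HFD mCherry replicate 17. The difference in the share of the 10 most abundant genes ran from 0.917 to 2.21 percentage points. No paired analysis was possible because the label groups share no replicate numbers.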

Other observations

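Some genes outside the duct and stromal lists also differed between libraries. Hspa1b, an inducible heat shock protein of the stress list, was at 1500, 1533, 1731, 186, 1080, 248, 1415 and 994 CPM in the 8 high libraries (SD mCherry 1 and 3, HFD mCherry 15 and 17, HFD Tert 25 and 26, HFD TertCi 30 and 33) and at 701, 171, 126 and 123 CPM in the low ones. It was not called (adjusted p by edgeR = 0.0752, log2 fold change 2.14 ± 0.60, SE), and the immediate early genes Fos and Jun had log2 fold changes of -0.08 and 0.04. The high library with the least Hspa1b, HFD mCherry replicate 17, is also the one with the least Crisp1.

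Ltf (lactoferrin), an iron-binding protein of neutrophil granules and of secretory epithelia, was at 97.1 CPM in SD mCherry replicate 1 and 235 CPM in HFD TertCi replicate 30, and at most 13.5 CPM in the other 10 libraries. It was not called (adjusted p by edgeR = 0.0804). Retnlg, another neutrophil gene, reached at most 0.501 CPM. Of 7 Schwann cell genes, which mark the glia of peripheral nerves, all 7 had a positive log2 fold change (median 1.34). Cdh19, an adhesion molecule among them, had a log2 difference of 1.78 ± 0.42 (SE, adjusted p by edgeR = 0.0573).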
